A study of Mus musculus with 8 samples.

Results

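The genes described here encode the subunits of 2 groups of chromatin complexes, Polycomb (PRC1 and PRC2) and BAF, together with 4 remodellers of the Chd family. They were chosen as a list of 43 genes, and all 43 were found, by gene identifier, among the 15538 genes of the table. The list held 7 PRC2 genes, 12 PRC1 genes, 20 BAF genes and 4 Chd genes. Gene expression was measured by bulk sequencing of polyadenylated RNA from primary neurospheres, floating cultures of neural stem cells (NSCs), grown from embryonic mouse brain. The labels gave 4 libraries the genotype Phf23-/- (numbered 1 to 4) and 4 the genotype WT (numbered 1 to 4), and by its description the series asks how loss of Phf23, a chromatin protein with a PHD finger, holds back differentiation of these cells. The strain, the age of the embryos, the passage of the cultures and the deleted part of Phf23 were not given in the sources used here. Nothing said that libraries of a genotype came from separate embryos or cultures, so the p-values below cover variation among the sequenced libraries only, which may be technical.

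PRC2 methylates lysine 27 of histone H3 through Ezh1 or Ezh2, and PRC1 ubiquitylates histone H2A through Ring1 or Rnf2. Both keep developmental genes silent in stem cells. BAF complexes are ATP-driven nucleosome remodellers that oppose Polycomb at many sites. As neural progenitors become neurons, BAF exchanges subunits: Actl6a gives way to Actl6b, Phf10 and Dpf2 to Dpf1 and Dpf3, and Ss18 to Ss18l1.

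In the libraries labelled Phf23-/-, 8 of the 43 genes were lower and 1 was higher than in those labelled WT at a false discovery rate (FDR) under 0.05 over all genes (limma-trend, n = 4 libraries per label). The lower genes were the PRC2 genes Suz12 and Jarid2, the PRC1 gene Pcgf3, the BAF genes Smarcc1, Arid2 and Arid1b, and the remodellers Chd7 and Chd8. The higher gene was Smarcd3, a BAF gene. Lower calls made up 18.6% of the members, against 14.8% of all genes tested, and higher calls 2.33% of the members, against 14.8% of all genes. In either direction 20.9% of the members were called, no more than the 29.6% of all genes. The median log2 fold change, Phf23-/- minus WT, was -0.15 over the members and 0.00 over all genes, and 29 members were on the negative side. For 12 members the ranges of the 2 labels did not overlap (27.9% of the members, against 27.7% of all genes). Of the subunits that BAF exchanges in neurons, none was called, and Dpf2 was the 1 whose ranges did not overlap.

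**Figure D1:**
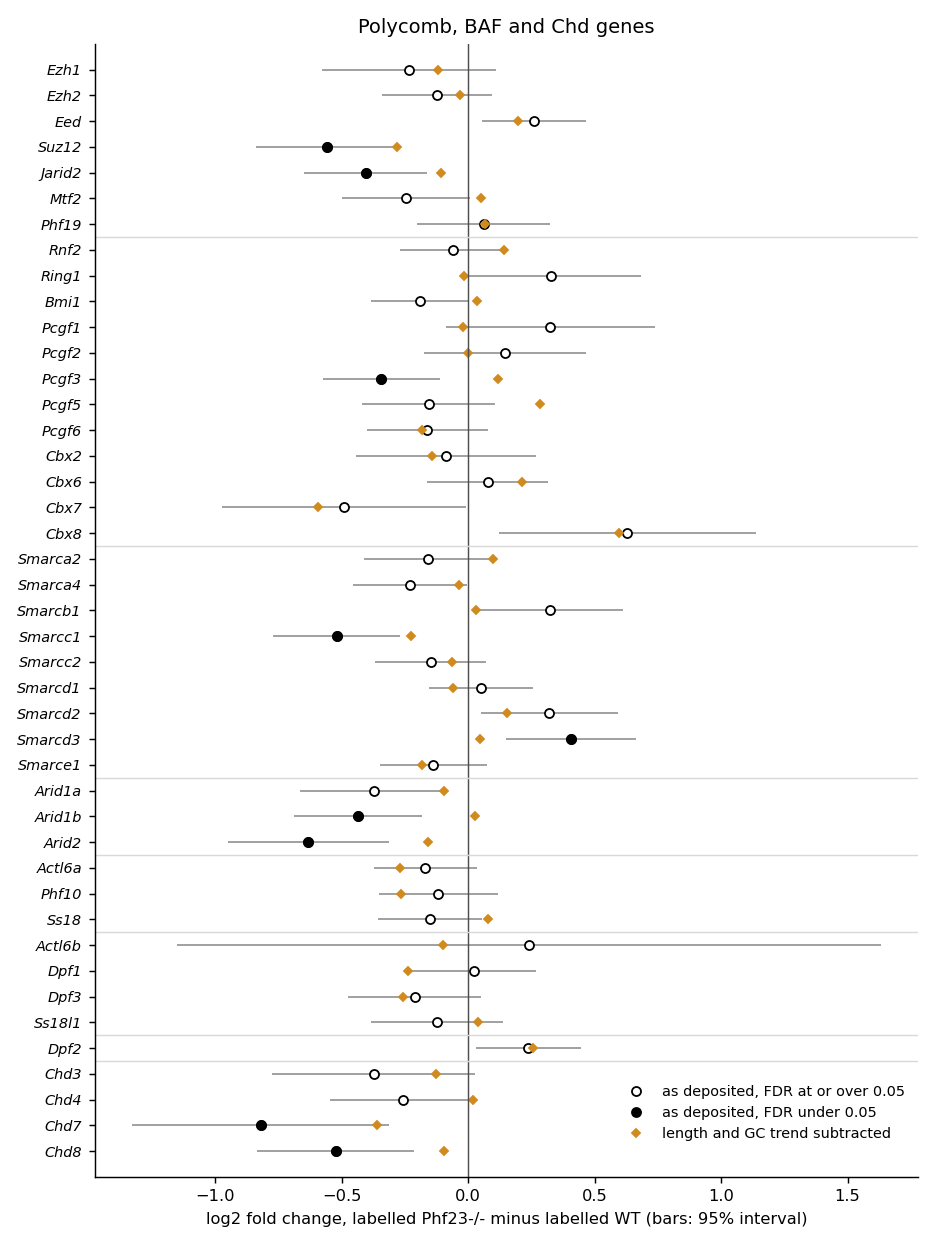
Log2 fold change of each member, libraries labelled Phf23-/- minus those labelled WT, with its 95% interval. Filled circles mark the 9 members with FDR under 0.05 (1 to the right of 0, 8 to the left) and orange diamonds give the fold change after the dependence on transcript length and GC content was subtracted.

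Phf23 checks the labels, and it went against them. It averaged 1481 ± 108 normalised reads in the libraries labelled Phf23-/- and 798 ± 85.4 in those labelled WT (SD, n = 4 each), a log2 fold change of 0.89 with an FDR of 0.000581 in limma-trend. Normalised reads are counts scaled by a size factor for each library, and what part of Phf23 the reads cover is unknown, so each direction below is that of the libraries as labelled. Recovered depth ran from 18099114 to 19462516 reads in libraries labelled Phf23-/- and from 15647304 to 18241215 in those labelled WT. All 8 of 8 listed neural stem cell markers were in the table. Their summed level, mostly of Vim and Fabp7, was 156423 to 198907 normalised reads under Phf23-/- and 136420 to 145801 under WT. Pax6 averaged only 488 under Phf23-/- and 460 under WT. Of the 8 markers, 2 were higher and 0 lower: Hes5 (log2 fold change 1.67, FDR 0.000332) and Fabp7 (0.62, FDR 0.00923). Of the markers of other cells, 4 of 4 astrocyte, 6 of 6 oligodendrocyte-lineage, 1 of 5 microglial, 2 of 4 endothelial, 1 of 4 fibroblast and pericyte, 2 of 3 ependymal and 0 of 3 blood genes were in the table. Summed oligodendrocyte-lineage markers ran from 60696 to 74728 under Phf23-/- and from 48043 to 69413 under WT (3 of 6 higher, 0 lower), and astrocyte markers from 2268 to 2532 under Phf23-/- and from 3059 to 3732 under WT (2 higher, 2 lower). Aldh1l1 made up most of the astrocyte sum, at 1479 ± 95.6 under Phf23-/- and 2746 ± 298 under WT. Aldh1l1 and Aqp4 were lower (log2 fold change -0.89 and -0.95), whereas Gfap (0.91) and S100b (0.78) were higher. Summed ependymal markers ran from 498 to 523 under Phf23-/- and from 315 to 541 under WT (1 higher), and the microglial, endothelial and fibroblast markers summed to at most 57.6 in any library, with none called. In bulk RNA, fewer cells of a type and less RNA per cell cannot be told apart, and the part of these cells in the results below was not tested.

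The libraries also differed in how gene level depended on transcript length. The slope of a gene's log2 deviation against log2 transcript length was -0.24, -0.30, -0.09 and 0.04 in libraries 1 to 4 labelled Phf23-/-, and 0.26, 0.19, 0.08 and 0.06 in libraries 1 to 4 labelled WT. All 4 slopes under Phf23-/- were below all 4 under WT (two-sided exact permutation p = 0.0286, the smallest that 4 against 4 can give). Among the members, log2 fold change and transcript length had a Spearman rho of -0.74 over 43 genes that share the same libraries, and over 13265 genes rho was -0.61. Of the 14 members with transcripts of at least 5000 nt, 7 were called lower and 0 higher, with a median log2 fold change of -0.37. Of the 29 shorter members, 1 was called lower and 1 higher, with a median of -0.09. The share called among all genes of each length class was not counted, so these counts do not set the members apart. After the trend with length and GC content within each library was subtracted, rho over the members was 0.02, and both medians lay nearer 0, at -0.07 and -0.02. The subtraction is built to remove this dependence over all genes, so the smaller rho and medians are not a separate result. The trend-subtracted fit called 4 members lower (9.30%, against 6.53% of all genes) and 1 higher (2.33%, against 12% of all genes). Its lower members were Suz12, Smarcc1, Cbx7 and Actl6a and its higher member was Dpf2, so Suz12 and Smarcc1 were called in both fits. With the longest transcript of any kind in place of the longest protein-coding one, a choice made after seeing the data, the trend-subtracted fit called Suz12, Smarcc1 and Actl6a lower (6.98%, against 7.18% of all genes) and Smarcd3 and Cbx6 higher (4.65%, against 12.6% of all genes). With the slope of each library as a covariate 0 members were called, against 1.07% of all genes, and 2 had an unadjusted p under 0.05. Without the 4 libraries of steepest slope (Phf23-/- 1 and 2, WT 1 and 2), Chd7 alone was called, 2.33% of the members against 9.15% of all genes. Slope and genotype cannot be told apart in these libraries, so each called member is given with its trend-subtracted value.

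**Figure D2:**
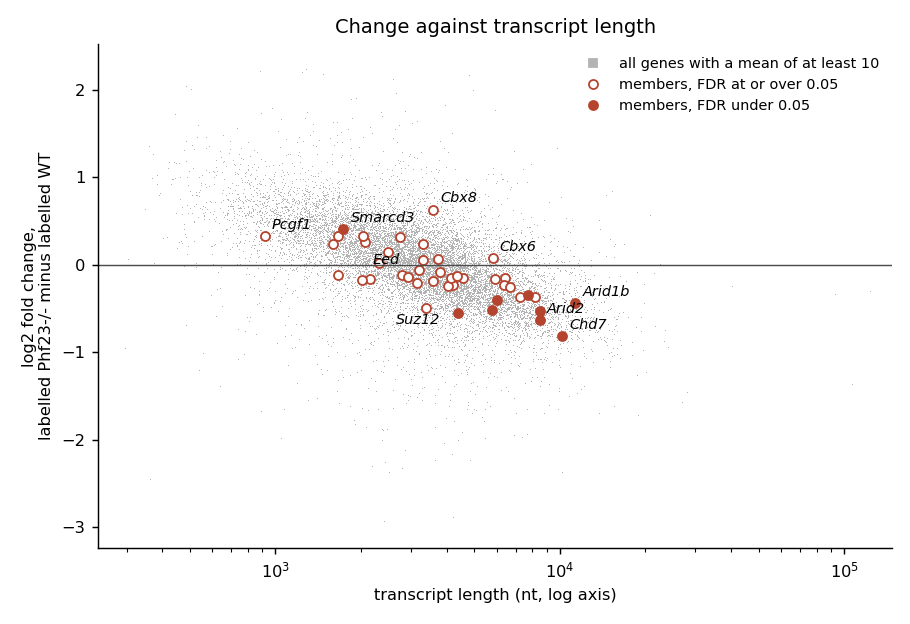
Log2 fold change, libraries labelled Phf23-/- minus those labelled WT, against transcript length in nt on a log axis. Small grey points are the 13265 genes that average 10 or more normalised reads, circles are the members and filled circles have FDR under 0.05; the fold change is lower for longer transcripts (rho -0.74 over the members).

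Of the 7 PRC2 members, 2 fell in libraries labelled Phf23-/-, 0 rose and 5 did not pass the test, with a median log2 fold change of -0.23. This count and those of the other member groups below stand beside 14.8% of all genes called in each direction. Suz12, which holds the complex together, was lower, whereas Ezh2 and Eed were not called. The promoters of these 3 core genes are shown because E2F factors are known activators of Ezh2 in dividing cells and because these genes encode 1 complex yet had fold changes of both signs. Each runs from 250 bases before to 50 after the gene's start, on the gene's strand, from RefSeq on GRCm38.p6. Capitals mark the E2F motif TTTNNCGC (N is any base, searched on both strands, with no other motif searched).
Ezh2, chr6:47594981-47595280, minus strand: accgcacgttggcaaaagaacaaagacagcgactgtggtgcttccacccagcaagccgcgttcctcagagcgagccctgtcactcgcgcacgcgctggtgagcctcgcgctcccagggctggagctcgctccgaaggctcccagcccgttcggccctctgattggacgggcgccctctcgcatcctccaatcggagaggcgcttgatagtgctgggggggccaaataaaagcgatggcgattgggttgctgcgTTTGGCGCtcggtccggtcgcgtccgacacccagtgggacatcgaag
Suz12, chr11:79992856-79993155, plus strand: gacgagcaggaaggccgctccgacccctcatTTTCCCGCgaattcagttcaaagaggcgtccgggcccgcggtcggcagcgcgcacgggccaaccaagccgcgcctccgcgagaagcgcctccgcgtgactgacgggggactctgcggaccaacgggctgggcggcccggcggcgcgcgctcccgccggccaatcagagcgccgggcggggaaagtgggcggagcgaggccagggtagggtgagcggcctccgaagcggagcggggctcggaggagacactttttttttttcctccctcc
Eed, chr7:89980927-89981226, minus strand: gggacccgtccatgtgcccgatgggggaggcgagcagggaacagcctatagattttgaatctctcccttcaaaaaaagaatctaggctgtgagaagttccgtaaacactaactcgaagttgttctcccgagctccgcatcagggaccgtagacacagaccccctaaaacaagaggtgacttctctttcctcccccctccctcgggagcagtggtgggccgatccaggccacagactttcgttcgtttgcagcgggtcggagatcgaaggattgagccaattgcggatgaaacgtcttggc
The match began at base 4 after the start in Ezh2 (the first base of the gene being 1) and at base -219 in Suz12, and Eed had no match in this window. The motif was in 1698 of the 32851 promoters of the RefSeq table (5.17%), and among the 36 members found there by symbol it was in 5: Arid1a, Ezh2, Phf19, Smarcd1 and Suz12. A member was counted if any promoter listed for it matched, so its count is by gene and the 5.17% is by promoter. The 2 cannot be compared directly. GC content was 64.3% for Ezh2, 71% for Suz12 and 54.7% for Eed, with 31, 41 and 17 CpG pairs. A match is a description of the letters.

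Suz12 (ENSMUSG00000017548, chr11:79993106-80034123, plus strand of mm10) stood at 1807, 1426, 1892 and 2056 normalised reads in Phf23-/- libraries 1 to 4, against 3063, 2728, 2509 and 2241 in WT libraries 1 to 4. The highest library under Phf23-/- was below the lowest under WT. It averaged 1795 ± 267 under Phf23-/- and 2635 ± 348 under WT (SD over 4 libraries), a log2 fold change of -0.56 ± 0.13 (SE; limma-trend FDR 0.0110). The call held with any 1 library left out and with the length and GC trend subtracted, where the log2 fold change was -0.28 (FDR 0.0337). It was lost with the slope covariate (-0.13, FDR 0.793) and without the 4 libraries of steepest slope (-0.27, FDR 0.106).

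Jarid2, a substoichiometric PRC2 partner that helps target the complex, had 584, 547, 595 and 743 normalised reads under Phf23-/- and 825, 779, 830 and 816 under WT. Its groups did not overlap, and the WT libraries lay close together. Jarid2 averaged 617 ± 86.2 under Phf23-/- and 813 ± 23.5 under WT, a log2 fold change of -0.41 ± 0.11 (FDR 0.0196). The call was lost without Phf23-/- 1 (FDR 0.0634), Phf23-/- 3 (0.0504), WT 1 (0.0548) or WT 2 (0.0501), and the trend-subtracted value was -0.11 (FDR 0.379).

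Eed, which reads trimethylated lysine 27 and stimulates the enzyme, had 993, 1067, 991 and 896 normalised reads under Phf23-/- and 823, 810, 799 and 856 under WT. Every library under Phf23-/- was above every one under WT, yet the log2 fold change of 0.26 (95% interval 0.05 to 0.47) missed the threshold (FDR 0.0564). It passed in DESeq2, limma-voom and edgeR with TMM scaling on filtered genes, but not in edgeR with no filter. Its trend-subtracted value was 0.20 (FDR 0.0665). It was 0.12 with the slope covariate (FDR 0.805) and 0.19 without the 4 libraries of steepest slope (FDR 0.377). Mtf2, a Polycomb-like protein that recruits PRC2 to CpG islands, had 667, 659, 734 and 738 under Phf23-/- and 936, 932, 747 and 724 under WT. WT 1 and 2 were far above and WT 4 lay within the Phf23-/- range, and the difference did not pass (log2 fold change -0.25, FDR 0.126). Annotated exons of 9 members overlap another gene of the table on the other strand, and without a known strand setting such reads cannot be told apart. The overlap was 261 bases for Eed, 395 for Mtf2, 123 for Smarcc1 and between 40 and 2466 for Actl6a, Cbx7, Phf10, Rnf2, Smarca2 and Smarcd3, and none of the 9 partner genes was called in the deposited values.

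The catalytic subunits did not pass the test. Ezh2 averaged 2524 ± 137 normalised reads under Phf23-/- and 2757 ± 295 under WT, a log2 fold change of -0.12 with a 95% interval of -0.34 to 0.10 (FDR 0.381). Its paralog Ezh1, which is linked to non-dividing cells, averaged 157 ± 32.3 under Phf23-/- and 182 ± 11.1 under WT (FDR 0.287). Per kb of transcript, Ezh2 made up 96.1% ± 0.636 of the Ezh1 and Ezh2 level under Phf23-/- and 95.8% ± 0.556 under WT. Phf19, another Polycomb-like protein, had a log2 fold change of 0.06 (FDR 0.736).

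**Figure D3:**
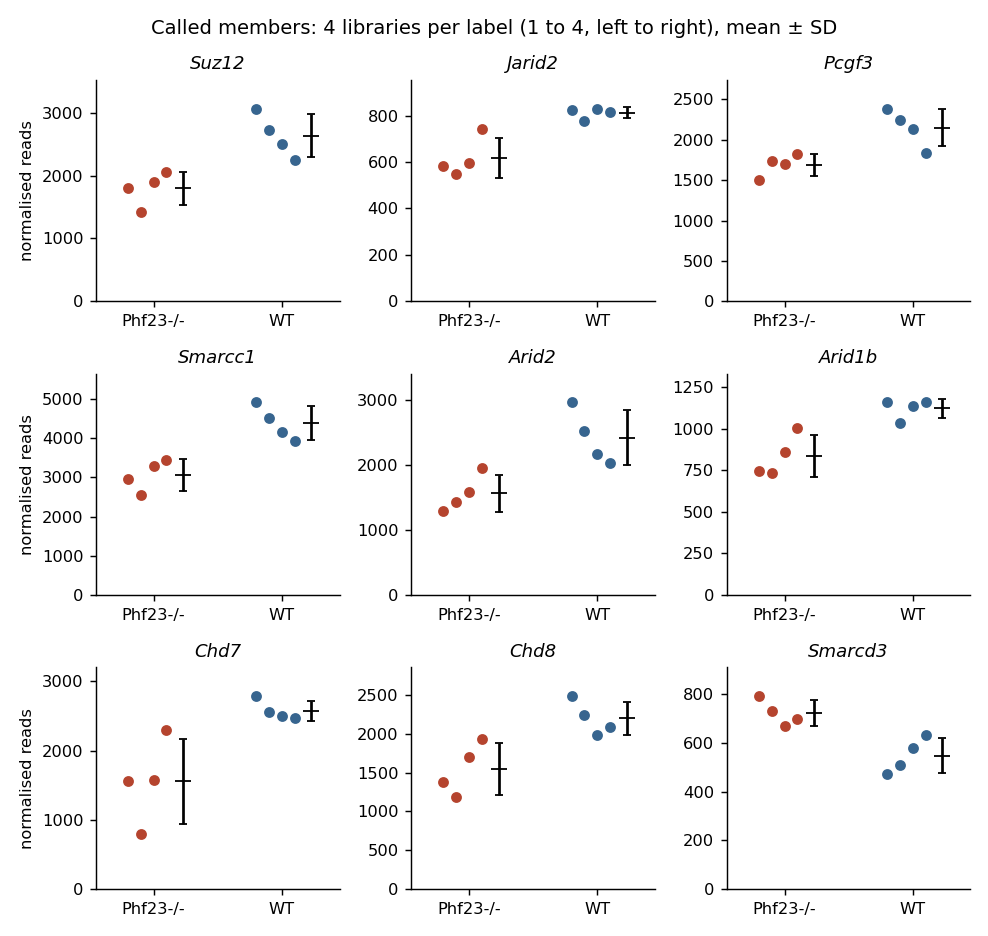
Normalised reads of the 9 called members in each library, libraries labelled Phf23-/- in red on the left and those labelled WT in blue on the right of each panel, with the mean ± SD beside them. The groups do not overlap in any panel; Smarcd3 alone is higher under Phf23-/-.

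Of the 12 PRC1 members, 1 was lower, 0 were higher and 11 were not called, with a median log2 fold change of -0.07. Pcgf3, which defines a variant PRC1, had 1505, 1738, 1696 and 1818 normalised reads under Phf23-/- and 2385, 2250, 2129 and 1837 under WT. The groups were separated by a narrow gap, between Phf23-/- 4 and WT 4. Its log2 fold change was -0.34 ± 0.11 (FDR 0.0300), and it turned to 0.12 with the length trend subtracted (FDR 0.321). The call was lost without Phf23-/- 1 (FDR 0.0993), Phf23-/- 3 (0.0633), WT 1 (0.0948), WT 2 (0.0907) or WT 3 (0.0604).

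Cbx7 and Cbx8 belong to the chromodomain subunits that bind trimethylated lysine 27. Cbx8 had 429, 396, 321 and 333 normalised reads under Phf23-/- and 138, 229, 275 and 362 under WT, with WT 4 inside the Phf23-/- range. A log2 fold change of 0.63 did not pass (FDR 0.0601), and with 1 library left out it ran from 0.37 without WT 1 (FDR 0.150) to 0.83 without WT 4 (FDR 0.0164). Without the 4 libraries of steepest slope it was 0.05 (FDR 0.895), and with the slope covariate -0.06 (FDR 0.969). Cbx7 had 168, 76.9, 149 and 152 under Phf23-/- and 162, 168, 198 and 214 under WT. Phf23-/- 2 was far below the rest, and Phf23-/- 1 lay within the WT range. Its log2 fold change was -0.49 as deposited (FDR 0.112) and -0.59 with the trend subtracted (FDR 0.0349), and -0.35 in the trend fit with the longest transcript of any kind (FDR 0.169). Without Phf23-/- 2 it was -0.24 in the deposited values (FDR 0.263). Per kb, Cbx7 made up 4.90% ± 1.31 of the 4 Cbx genes listed under Phf23-/- and 7.07% ± 0.324 under WT, Cbx8 made up 12.7% ± 1.86 and 8.82% ± 2.13 under the same labels, and Cbx6 was the most abundant at 69.5% ± 2.22 and 69.6% ± 3.13.

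Bmi1, which sustains neural stem cell self-renewal by repressing Cdkn2a, had 2053, 2088, 1973 and 1946 normalised reads under Phf23-/- and 2445, 2235, 2419 and 2118 under WT. The groups did not overlap, but the log2 fold change of -0.19 did not pass (FDR 0.124). Rnf2, the main ubiquitin ligase subunit by level per kb, averaged 1429 ± 98.6 under Phf23-/- and 1489 ± 107 under WT, and its paralog Ring1 averaged 455 ± 68.5 and 366 ± 77.7 under the same labels. Neither passed (FDR 0.675 and 0.148). The other Pcgf genes and Cbx2 and Cbx6 had log2 fold changes between -0.16 and 0.33, with no call.

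Of the 9 BAF ATPase and common core members, Smarcc1 fell and Smarcd3 rose, and the rest did not pass. Smarcc1, a scaffold subunit (ENSMUSG00000032481, chr9:110117708-110240178, plus strand), had 2963, 2547, 3290 and 3457 normalised reads under Phf23-/- and 4912, 4524, 4149 and 3931 under WT. No Phf23-/- library reached the lowest WT library. Smarcc1 averaged 3064 ± 401 under Phf23-/- and 4379 ± 432 under WT, a log2 fold change of -0.52 ± 0.12 (FDR 0.00951). The call held with any 1 library left out and with the trend subtracted (log2 fold change -0.22, FDR 0.0297). It was lost with the slope covariate (log2 fold change -0.15) and without the 4 libraries of steepest slope (-0.26, FDR 0.108). Its paralog Smarcc2 had a log2 fold change of -0.15 (FDR 0.282). Per kb, Smarcc1 made up 40.0% to 41.6% of the pair in the 4 libraries labelled Phf23-/- and 45.1% to 49.7% in those labelled WT.

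Smarcd3, 1 of 3 alternative Smarcd subunits, had 791, 731, 669 and 697 normalised reads under Phf23-/- and 470, 508, 578 and 632 under WT. Every Phf23-/- library was above every WT library. Smarcd3 had a log2 fold change of 0.41 ± 0.12 (FDR 0.0232) as deposited and of 0.05 (FDR 0.720) with the trend subtracted, and it was 0.30 (FDR 0.0331), still called, with the trend of the longest transcript of any kind. The call was lost without Phf23-/- 1 (FDR 0.0783), WT 1 (0.0772) or WT 2 (0.0756). Its exons overlap those of Chpf2 on the other strand over 2466 bases, and Chpf2 had a log2 fold change of 0.03 (FDR 0.908).

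Smarcd2 had 449, 341, 386 and 442 normalised reads under Phf23-/- and 328, 314, 290 and 358 under WT, with Phf23-/- 2 inside the WT range (log2 fold change 0.32, FDR 0.0705). Smarcb1, a core subunit and tumour suppressor, had 2881, 3406, 2326 and 2166 under Phf23-/- and 2069, 1995, 2205 and 2216 under WT. Phf23-/- 1 and 2 were high and Phf23-/- 4 lay among the WT libraries (log2 fold change 0.32, FDR 0.0831; 0.03 with the trend subtracted). The ATPase Smarca4 averaged 6565 ± 790 under Phf23-/- and 7661 ± 262 under WT (FDR 0.112), and made up 82.2% ± 0.655 and 82.8% ± 2.16 of the ATPase level per kb under the same labels, the rest being Smarca2. Smarca2, Smarcd1 and Smarce1 had log2 fold changes of -0.16, 0.05 and -0.14, with no call.

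The ARID subunits, which define kinds of BAF complex, were lower for 2 of 3 members, against 14.8% of all genes. Their transcripts ran from 8187 to 11325 nt, and 0 were called with the trend subtracted. Arid2, the ARID subunit of PBAF, had 1289, 1428, 1579 and 1956 normalised reads under Phf23-/- and 2957, 2523, 2166 and 2029 under WT. The groups did not overlap, with Phf23-/- 4 just under WT 4. Its log2 fold change was -0.63 ± 0.15 (FDR 0.0107), it held with any 1 library left out, and it was -0.16 with the trend subtracted (FDR 0.139).

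Arid1b, an ARID subunit of canonical BAF, had 746, 732, 857 and 1004 normalised reads under Phf23-/- and 1157, 1034, 1137 and 1157 under WT. All Phf23-/- libraries were below all WT libraries (log2 fold change -0.44 ± 0.12, FDR 0.0169). It was 0.03 with the trend subtracted (FDR 0.853), and the call was lost without Phf23-/- 1 (FDR 0.0619) or WT 1 (0.0506). Its alternative Arid1a had 2547, 2417, 3147 and 3729 under Phf23-/- and 4110, 3893, 3390 and 3752 under WT. Phf23-/- 4 lay among the WT libraries, and the log2 fold change of -0.37 did not pass (FDR 0.0522).

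Of the Chd members, 2 of 4 were lower, against 14.8% of all genes. The 4 transcripts were 6697 to 10216 nt long, and 0 were called with the trend subtracted. Chd7, whose human gene is mutated in CHARGE syndrome, had 1565, 795, 1568 and 2300 normalised reads under Phf23-/- and 2784, 2556, 2494 and 2464 under WT. Phf23-/- 2 was the lowest library and Phf23-/- 4 lay just under the WT group. The log2 fold change of -0.82 ± 0.23 (FDR 0.0220) was -0.53 without Phf23-/- 2 (FDR 0.0215). It was lost as a call without Phf23-/- 1 (FDR 0.0564), WT 1 (0.0644) or WT 2 (0.0576), was -0.36 with the trend subtracted (FDR 0.176), and was -0.38 without the 4 libraries of steepest slope (FDR 0.00826).

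Chd8, whose human gene is linked to autism, had 1372, 1189, 1696 and 1937 normalised reads under Phf23-/- and 2483, 2239, 1982 and 2083 under WT. The highest Phf23-/- library was just below the lowest WT library. The log2 fold change was -0.52 ± 0.14 (FDR 0.0188) as deposited and -0.10 with the trend subtracted (FDR 0.341). The call was lost without Phf23-/- 1 (FDR 0.0661), WT 1 (0.0613) or WT 2 (0.0563).

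Chd4 and Chd3 are the alternative ATPases of NuRD, a deacetylase and remodelling complex. Chd4 had 7892, 6021, 8413 and 9662 normalised reads under Phf23-/- and 9710, 10123, 8880 and 9048 under WT. Chd3 had 253, 192, 284 and 399 under Phf23-/- and 340, 389, 321 and 368 under WT. Phf23-/- 4 lay among the WT libraries for Chd4 and above them for Chd3, and neither gene passed (log2 fold change -0.26, FDR 0.159 for Chd4; -0.37, FDR 0.145 for Chd3). Per kb, Chd4 made up 96.9% ± 0.385 of the pair under Phf23-/- and 96.7% ± 0.218 under WT.

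**Figure D4:**
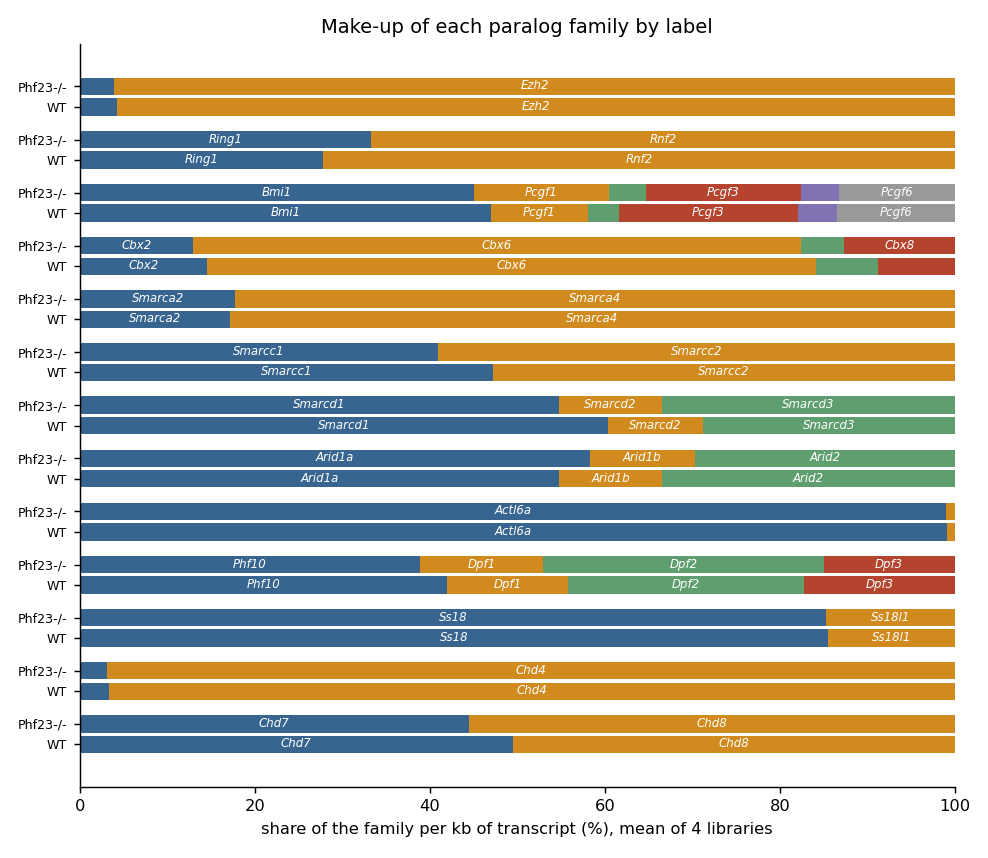
Share of each member in the summed level per kb of its paralog family, in percent, as the mean of 4 libraries, with Phf23-/- above WT in each pair of bars. Segments too narrow for a name are Ezh1, Pcgf2, Pcgf5, Cbx7, Actl6b, Chd3 and, under WT, Cbx8; Smarcc1 holds 40.9% under Phf23-/- and 47.3% under WT, while the Ezh, Actl6, Ss18 and Chd3 and Chd4 bars are nearly level.

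The subunits exchanged between progenitors and neurons were measured to ask whether the BAF make-up of the libraries differed by label. None of the 3 progenitor subunits and none of the 4 neuronal ones was called in the deposited values. The exchange of Actl6a is known to involve miR-9-3p, a neuronal microRNA that represses it, so the mature sequence (RefSeq, GRCm38.p6, 3 loci on chromosomes 3, 7 and 13) is shown with its seed, bases 2 to 8, in capitals, beside the match in the Actl6a 3′ UTR with the 7 bases that pair with the seed in capitals.
mmu-miR-9-3p: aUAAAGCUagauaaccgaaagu
Actl6a 3′ UTR, chr3:32726628-32726651, plus strand: ctcaacgtctgtAGCTTTAgtaca
The capitals of the site began at base 38 of a 371-nt UTR. The 7 bases AGCTTTA were in the first 371 UTR bases of 2.82% of 15381 genes with a UTR at least as long. Mature microRNAs are not measured by gene counts, so the match describes the letters only.

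Actl6a (ENSMUSG00000027671, chr3:32706298-32726973, plus strand) had 1132, 1051, 1010 and 1021 normalised reads under Phf23-/- and 1098, 1155, 1259 and 1232 under WT. Phf23-/- 1 lay within the WT range and the other 3 below it. The log2 fold change was -0.17 (95% interval -0.37 to 0.03, FDR 0.192) as deposited and -0.27 with the trend subtracted (FDR 0.0206). It was -0.31 in the trend fit that took the longest transcript of any kind (FDR 0.0119). The end of Actl6a overlaps Mrpl47 on the other strand over 452 exonic bases, and Mrpl47 was called in the other direction in the trend-subtracted fit (0.45, FDR 0.0381).

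Actl6b (ENSMUSG00000029712, chr5:137553517-137569582, plus strand), its neuronal counterpart, had 13.5, 12.6, 6.51 and 2.94 normalised reads under Phf23-/- and 6.87, 13.4, 12.4 and 0.969 under WT. Both groups covered nearly the same range. These were 69 reads in all 8 libraries, and the log2 fold change of 0.24 had a 95% interval of -1.15 to 1.63 (FDR 0.807), so only a large difference was detectable at this depth. Per kb, Actl6b stood at 1.05% ± 0.563 of the Actl6a level under Phf23-/- and 0.900% ± 0.604 under WT (two-sided exact permutation p = 0.571; 0.762 after Benjamini-Hochberg adjustment over the 4 ratios tested).

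Among the PHD-finger subunits, Phf10 had 1199, 1048, 1162 and 1133 normalised reads under Phf23-/- and 1427, 1283, 1161 and 1078 under WT. Dpf1 had 622, 528, 549 and 577 under Phf23-/- and 504, 551, 538 and 656 under WT. Dpf3 had 752, 756, 842 and 951 under Phf23-/- and 1056, 1068, 836 and 868 under WT. All 3 overlapped between labels, with log2 fold changes of -0.12 for Phf10 (95% interval -0.35 to 0.12), 0.02 for Dpf1 (-0.22 to 0.27) and -0.21 for Dpf3 (-0.47 to 0.05).

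Unlike Actl6b, the neuronal subunits Dpf1 and Dpf3 were well detected. Per kb, Dpf1 stood at 36.1% ± 1.45 of Phf10 under Phf23-/- and 33.4% ± 7.71 under WT (exact permutation p = 0.429). Dpf3 stood at 38.6% ± 4.60 under Phf23-/- and 41.1% ± 2.82 under WT (exact permutation p = 0.457). Both adjusted values were 0.762. The Dpf1 ratio of WT 4 was 43.8%, above every other library. The difference in the log2 Dpf1 ratio, Phf23-/- minus WT, was 0.14 with all libraries and ran from 0.018 without WT 1 to 0.28 without WT 4.

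Dpf2, the widely expressed relative that precedes Dpf1 and Dpf3, had 1741, 1978, 2033 and 1701 normalised reads under Phf23-/- and 1552, 1537, 1551 and 1664 under WT. Every Phf23-/- library was above every WT library. Dpf2 had a log2 fold change of 0.24 (95% interval 0.03 to 0.44), which missed the threshold as deposited (FDR 0.0766), passed with the trend subtracted (0.26, FDR 0.0304) and did not with the trend of the longest transcript of any kind (0.22, FDR 0.0590). Of the summed level per kb of Phf10, Dpf1, Dpf2 and Dpf3, Dpf2 made up 32.1% ± 2.84 under Phf23-/- and 27.0% ± 2.10 under WT.

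Ss18 had 2478, 2060, 2087 and 2212 normalised reads under Phf23-/- and 2540, 2579, 2359 and 2326 under WT. Ss18l1, which takes its place in neurons, had 366, 367, 391 and 467 under Phf23-/- and 447, 384, 428 and 474 under WT. Both overlapped between labels, with log2 fold changes of -0.15 (95% interval -0.36 to 0.05) and -0.13 (-0.39 to 0.14). Per kb, Ss18l1 stood at 17.3% ± 2.50 of Ss18 under Phf23-/- and 17.0% ± 2.15 under WT (exact permutation p = 0.771, also after adjustment).

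Neuronal markers are given beside these subunits. All 10 of 10 were in the table, summing to 11148 to 14273 normalised reads under Phf23-/- and 17502 to 23216 under WT, mostly Map2 (10077 ± 1236 under Phf23-/- and 17464 ± 2504 under WT). Map2 and Elavl4 were lower under Phf23-/- and Rbfox3 was higher, at 45.0 ± 3.39 normalised reads under Phf23-/- and 15.7 ± 8.42 under WT. With the trend subtracted, Map2 stayed lower and Rbfox3 higher, Elavl4 did not pass (-0.24, FDR 0.0552) and Dcx was higher (0.64, FDR 0.0125; 0.10 and not called as deposited). Tubb3 averaged 171 ± 38.7 under Phf23-/- and 175 ± 54.0 under WT, and Stmn2 was near 0 in both, at 2.12 ± 2.44 and 1.46 ± 1.27 under the same labels. The part of neurons in the levels of the BAF subunits was not tested.

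**Figure D5:**
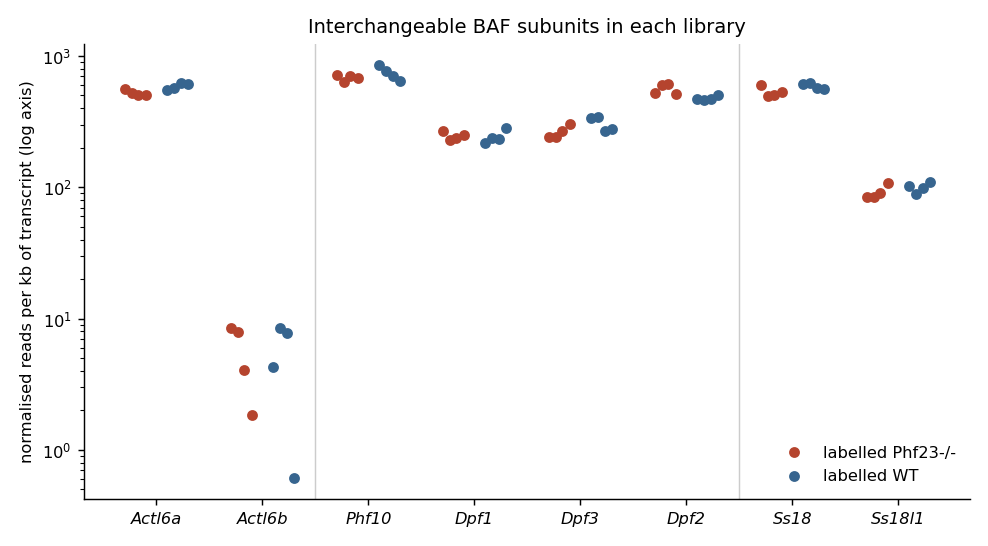
Level per kb of transcript of the exchangeable BAF subunits in each library, on a log axis, with libraries labelled Phf23-/- in red to the left of those labelled WT in blue. Actl6b lies far below Actl6a under both labels (1.05% of it per kb under Phf23-/- and 0.900% under WT), whereas Dpf1, Dpf3 and Ss18l1 lie within 1 decade of their counterparts, and the labels overlap for all but Dpf2.

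Other genes of the same complexes were taken from lists that do not include the members. Their counts stand beside 14.8% of all genes called in each direction and, with the trend subtracted, 12% called higher and 6.53% lower. Of 22 other PRC1 genes, 9 were lower and 2 higher (2 lower and 2 higher with the trend subtracted). Scml4, a relative of the Drosophila Polycomb-group protein Scm, ran from 210.3 to 236 normalised reads under Phf23-/- and from 315 to 363 under WT (log2 fold change -0.59, FDR 0.00577; -0.38 with the trend subtracted). Mga, which brings the Pcgf6 form of PRC1 to its target genes, averaged 897 ± 203 under Phf23-/- and 1621 ± 315 under WT (-0.86, FDR 0.00619; -0.21 with the trend subtracted). Scml2, of the same family as Scml4, had a log2 fold change of -0.68 (FDR 0.0107; -0.36 with the trend subtracted, FDR 0.0916). Phc2, a polymerising subunit named after its values were seen, was higher. It averaged 6150 ± 254 under Phf23-/- and 4473 ± 729 under WT (0.47, FDR 0.0132, with the call lost without WT 2 at 0.0515).

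Of 7 other PRC2 genes, 1 was higher and 2 were lower (1 and 0 with the trend subtracted). Lcor, whose locus encodes the PRC2 partner PALI1, averaged 106 ± 94.0 normalised reads under Phf23-/- and 400.3 ± 122 under WT (log2 fold change -2.24, FDR 0.00853; -1.93 with the trend subtracted, FDR 0.0543). It was -1.02 without the 4 libraries of steepest slope (FDR 0.00996) and -0.24 with the slope covariate (FDR 0.802). Lcorl, its paralog, had a log2 fold change of -0.54 (FDR 0.0224; -0.11 with the trend subtracted), and its call was lost without Phf23-/- 1, 2 or 3 or WT 1 or 2, where the FDR reached at most 0.0783. Phf1, a Polycomb-like protein, averaged 253 ± 28.4 under Phf23-/- and 156 ± 44.6 under WT (0.73, FDR 0.0157; 0.47 with the trend subtracted, FDR 0.0212). Its call was lost without Phf23-/- 1, WT 1 or WT 2, where the FDR reached at most 0.0555. Of 8 genes of PR-DUB, which removes ubiquitin from H2A, 4 were lower and 0 higher (1 and 0 with the trend subtracted), with Mbd5 at 329 ± 82.5 under Phf23-/- and 574 ± 52.9 under WT (-0.83, FDR 0.00553; -0.35 with the trend subtracted).

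Of 11 other BAF and PBAF genes, 3 were lower and 1 higher (3 lower and 2 higher with the trend subtracted). Pbrm1, the bromodomain subunit of PBAF, averaged 1835 ± 244 normalised reads under Phf23-/- and 2913 ± 539 under WT (log2 fold change -0.66, FDR 0.00752; -0.17 with the trend subtracted). Bcl11b, a zinc-finger subunit of neural BAF, averaged 76.6 ± 17.6 under Phf23-/- and 150.4 ± 32.9 under WT (-0.96, FDR 0.00931; -0.56 with the trend subtracted). Bicral had a log2 fold change of -0.67 (FDR 0.0108; -0.36 with the trend subtracted, FDR 0.0202). Of 6 other Chd genes, 4 were lower and 0 higher, of 11 NuRD partners 2 were higher and 2 lower, and of 14 ISWI and INO80 family genes 8 were lower and 1 higher. With the trend subtracted, 0 of the other Chd genes, 0 of the NuRD partners and 1 of the ISWI and INO80 family genes were called. That gene was Atrx, a remodeller of heterochromatin, at 3168 ± 735 under Phf23-/- and 5934 ± 1268 under WT (-0.91, FDR 0.00578; -0.32 with the trend subtracted, FDR 0.00970).

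Genes that Polycomb is known to silence were few in what was analysed. Cdkn2b, a cell-cycle inhibitor next to Cdkn2a, averaged 591 ± 133 normalised reads under Phf23-/- and 408 ± 63.7 under WT (log2 fold change 0.52, FDR 0.0340; 0.16 with the trend subtracted, FDR 0.296). Its call was lost without Phf23-/- 1, Phf23-/- 2, WT 1 or WT 2, where the FDR reached at most 0.114. Cdkn2a and the imprinted inhibitor Cdkn1c did not pass, with log2 fold changes of 0.32 (FDR 0.298) and -0.25 (FDR 0.382).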

How the data were processed

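Per the labels' protocols, neurospheres were lysed in TRIzol and polyadenylated RNA was made into libraries with a NEBNext Ultra kit. The submitters' processing notes name the build mm10 and, for software, STAR (2.7.1a), DESeq2 (1.38.3), fastp (0.23.4) and FastQC (0.12.1). Which program counted reads, with what annotation and strand setting, and whether genes were filtered was not given in the sources used here. In the deposited table each signal value was a count divided by the size factor of its library: 100% of values were whole reads at a tolerance of 1e-04, from 15647304 to 19462516 reads per library. Of 15602 rows, 64 repeated another and were dropped, and 0 columns belonged to other samples. The lowest gene total was 11 reads.

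Genes were tested with limma-trend (limma 3.58.1, R 4.3.3; robust empirical Bayes) on log2(value + 1) with a single genotype term, two-sided, with Benjamini-Hochberg adjustment over 15538 genes and calls at FDR under 0.05. Fold changes are on that scale, which understates low genes. edgeR 4.0.16 on the recovered reads, by quasi-likelihood, called 4683 of 13324 genes; DESeq2 1.42.0, limma-voom, other scalings, filters and pseudocounts, a replicate block, 3 length corrections and leaving out libraries were alternatives. Symbols, coordinates (1-based, mm10) and the length of the longest protein-coding transcript came from GENCODE M21. The trend with length and GC content was a loess fit (span 0.3) for each library. The fits were tested on simulated data. Replicate numbers came from the sample titles. Nothing said that they pair the samples, and the main fit did not pair them.

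The members, lists and named-gene rule were chosen with earlier results of these data known. All 7 exchanged subunits and up to 4 members of each group with the lowest FDR have values by library, and Dpf2 was added after its values were seen. In lists of other genes up to 3 called genes of the lowest FDR could be named, and fewer were in some lists; Phc2 was added. A result for 1 other gene is not reported here. Ezhip and the HOX genes were looked up by symbol, and none was found among the genes tested.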

Additional observations from a re-analysis of the deposited data

Results flagged for a closer look

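Among 94 groups of 4 libraries checked (2 labels for each of the members and 4 ratios), 6 held a library whose distance from the nearest other was most of the group's range. Chance gives about 1 in 20 such groups. Library 2 labelled Phf23-/- was the lowest in 4 of them, at 2321 normalised reads of Ezh2, 524 of Phf19, 76.9 of Cbx7 and 1906 of Smarce1. In the libraries labelled WT, number 2 was the lowest for Arid1b, at 1034 normalised reads, and number 4 the highest for Dpf2, at 1664.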

How the results depend on the processing

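Smarcc1, Suz12 and Arid2 kept their calls with any 1 library left out. Of 945 results for single members under 22 alternative fits, 794 kept their direction and side of the threshold, 68 changed sign with no call in either fit, 54 lost a call, 24 gained one and 5 reversed. Most of the 945 were for the 34 members with no call in the main fit, which had none to lose. All of the 54 losses and 5 reversals fell on the 9 called members. The reversed ones were Pcgf3 with the length and GC trend subtracted (0.12, and 0.11 with the longest transcript of any kind, an alternative chosen after seeing the data), Arid1b with that trend subtracted (0.027), and Chd7 and Chd8 with the length slope as covariate (0.0174 and 0.0233); the cause was not tested.

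Members called lower numbered 8, against 0 with the replicate block or the slope covariate, 4 with the trend subtracted (3 with the longest transcript of any kind), 1 without the 4 libraries of steepest slope, 1 at FDR under 0.01 and 3 to 12 when 1 library was left out. Members called higher numbered 1, against 2 with edgeR under TMM or DESeq2 size factors, with limma-voom, with a minimum mean of 10 (over 42 members) and with the trend of the longest transcript of any kind, 3 with DESeq2, 0 with the replicate block, the covariate, the 4 steepest libraries left out or FDR under 0.01, and 0 to 4 with 1 library left out. Calls over all genes moved too when 1 library was left out. They ran from 936 lower and 948 higher without Phf23-/- 1 to 2942 lower and 2919 higher without Phf23-/- 4. With the replicate block the 9 called members had FDR from 0.0628 to 0.105, and 13 members had an unadjusted p under 0.05. Same-numbered libraries of the 2 labels did not deviate together (correlations -0.33 to -0.13). From library 1 to library 4 the length slope went from -0.24 to 0.04 under Phf23-/- and from 0.26 to 0.06 under WT. As slope and number run together, these correlations cannot decide whether the numbers pair samples. The block called 151 genes higher and 182 lower, against 2301 and 2292 in the main fit.

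The difference in the log2 Dpf1/Phf10 ratio, Phf23-/- minus WT, ran from 0.018 to 0.28 with 1 library left out. Library-size scaling moved the median of all genes to -0.06, with 1827 genes called higher and 2757 lower and members at 1 and 10. With few libraries, Actl6b at 69 reads allows no firm statement. Slope and genotype are tied in the steepest libraries, and without those an FDR rests on 2 libraries per label.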
